A study of Rattus norvegicus with 4 samples.

Results

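Hepatic gluconeogenesis was examined through 8 genes, *Pck1*, *Pck2*, *G6pc*, *Fbp1*, *Pc*, *Ppargc1a*, *Slc37a4*, and *Klf15*, which were found by their gene symbol among 16982 annotated genes in liver RNA from 4 male Wistar rats. Rats were purchased at 6 weeks of age and were wild type according to the labels, and each of the 4 conditions had 1 rat. A rat inhaled 4.5% sevoflurane or 6% desflurane for 6 hours, and the control of each agent inhaled the same agent for less than 1 minute, until loss of consciousness. All rats were kept from food for 2 hours before the experiment and were killed at about the same time of day, so the time under anesthesia and the time without food cannot be told apart. The values are TPM (a level corrected for transcript length and library size). A gene was called when its level exceeded 2 TPM in the higher of the libraries compared and differed more than 2-fold, which is the rule of the study. With 1 library for each condition no test could be made, no value has a replicate error, and every difference between conditions is also a difference between 2 rats.

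Gluconeogenesis is the synthesis of glucose from lactate, amino acids, and glycerol, and in rodents the liver is its main site during fasting. Pyruvate carboxylase (*Pc*) forms oxaloacetate in mitochondria, and the phosphoenolpyruvate carboxykinases, cytosolic *Pck1* and mitochondrial *Pck2*, convert it to phosphoenolpyruvate. Fructose-1,6-bisphosphatase (*Fbp1*) and the glucose-6-phosphatase catalytic subunit (*G6pc*) catalyze the later steps that are not shared with glycolysis, and *Slc37a4* carries glucose-6-phosphate into the endoplasmic reticulum, where the phosphatase acts. The coactivator PGC-1alpha (*Ppargc1a*) and the Krüppel-like factor *Klf15* raise the transcription of pathway genes. Glucagon, through cAMP and the factor CREB, and glucocorticoids raise the expression of *Pck1* and *G6pc*, and insulin lowers it.

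The sequences before the transcription start are shown for the 5 genes that passed the rule with desflurane, since the cAMP response element is a known control point of this pathway. They are the 250 bases before the start in RefSeq on the GRCr8 build, which differs from the rn6 build of the expression tables, and *G6pc* was matched by its current symbol G6pc1. Capitals mark the 8-base cAMP response element TGACGTCA, its variant TTACGTNA, the 5-base core TGACG or its reverse complement CGTCA, the insulin response core TGTTTTG, and TATAAA. *Slc37a4* has 2 starts in the table, and the window of the one that lies first is given.
Pck1 (GRCr8 chr3:182348322-182348571, plus strand): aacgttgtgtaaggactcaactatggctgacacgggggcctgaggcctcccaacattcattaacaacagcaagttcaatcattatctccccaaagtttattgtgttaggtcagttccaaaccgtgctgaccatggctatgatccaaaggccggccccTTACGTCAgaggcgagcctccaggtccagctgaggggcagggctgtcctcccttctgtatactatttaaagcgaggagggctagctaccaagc
G6pc (GRCr8 chr10:86807409-86807658, plus strand): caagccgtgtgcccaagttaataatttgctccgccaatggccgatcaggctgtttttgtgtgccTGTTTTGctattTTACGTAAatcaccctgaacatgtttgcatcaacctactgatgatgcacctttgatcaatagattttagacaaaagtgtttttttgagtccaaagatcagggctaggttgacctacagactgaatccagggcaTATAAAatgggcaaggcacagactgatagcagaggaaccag
Ppargc1a (GRCr8 chr14:63634058-63634307, plus strand): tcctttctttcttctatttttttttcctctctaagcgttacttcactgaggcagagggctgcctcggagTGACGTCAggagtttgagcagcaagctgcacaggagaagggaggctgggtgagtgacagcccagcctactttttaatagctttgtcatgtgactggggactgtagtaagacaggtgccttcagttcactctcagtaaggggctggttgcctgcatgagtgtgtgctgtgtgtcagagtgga
Slc37a4 (GRCr8 chr8:53619775-53620024, plus strand): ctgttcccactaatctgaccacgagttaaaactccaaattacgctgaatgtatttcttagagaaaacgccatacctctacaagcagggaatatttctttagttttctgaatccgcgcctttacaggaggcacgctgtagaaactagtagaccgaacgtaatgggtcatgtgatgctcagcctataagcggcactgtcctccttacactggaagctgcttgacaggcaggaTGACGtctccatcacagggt
Klf15 (GRCr8 chr4:124522765-124523014, plus strand): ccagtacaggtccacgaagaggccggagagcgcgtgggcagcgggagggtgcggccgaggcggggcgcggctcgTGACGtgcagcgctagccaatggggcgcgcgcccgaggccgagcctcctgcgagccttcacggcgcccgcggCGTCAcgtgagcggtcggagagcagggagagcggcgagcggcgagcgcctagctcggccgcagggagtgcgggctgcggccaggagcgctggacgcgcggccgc
The 8-base element TGACGTCA was found in the *Ppargc1a* window, from 181 to 174 bases before the start, and in 1.59% of 33469 windows of the table. The variant TTACGTNA, chosen for the search after these windows had been read, was found in *Pck1*, from 93 to 86 bases before the start, and in *G6pc*, from 174 to 167 bases before it, compared with 1.21% of all windows. The core TGACG, which is contained in TGACGTCA and overlaps the variant in *Pck1*, was found in *Pck1*, *Ppargc1a*, *Slc37a4*, and *Klf15* and in 18.2% of all windows. The insulin response core was found in *G6pc* and in 5.46% of all windows, and TATAAA was found in *G6pc* and in 12.9%. None of these letters was found in the windows of *Pck2* and *Fbp1*. Both strands were searched, and the forkhead motif TGTTTAC (3.21% of windows) and the palindromic glucocorticoid response element (0.012%) were not found in any of the 7 members with a window. *Pc* had no window. A match describes letters and not the binding of a factor.

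The libraries corresponded to between 4.47 and 5.40 Gb of aligned sequence, and the hepatocyte genes *Alb*, *Apoa1*, *Apob*, *Ttr*, *Tf*, *Serpina1*, *Fga*, and *Hnf4a* were all present, with summed TPM values between 132853 and 149298. Kidney tubule genes, a marker list of the other gluconeogenic organ, summed to between 3.42 and 5.03 TPM over 5 genes. *Lrp2* made up most of this sum, with levels between 3.02 and 4.90 TPM, and *Umod* was listed at 0 in all 4 libraries. Pancreatic acinar genes summed to 53.6 TPM over 7 genes in the sevoflurane control and to between 16.0 and 18.8 in the others, where *Cela1* made up most of the sum. Kupffer cell genes summed to 518 TPM over 6 genes in the sevoflurane control, 330.2 after sevoflurane, 410 in the desflurane control, and 479 after desflurane. The summed levels of T and B cell genes over 6 genes were 8.40, 3.25, 5.67, and 5.39 TPM in the same order, and those of erythroid genes over 3 genes were 77.9, 53.9, 57.4, and 32.0. The endothelial, stellate, and cholangiocyte lists had summed levels between 168 and 197 TPM, 270 and 300.4 TPM, and 11.0 and 16.9 TPM, respectively. The part of these cells in the changes below was not tested, and in bulk liver RNA fewer cells of a type and less RNA per cell cannot be told apart. The 9136 genes that exceeded 2 TPM in every library shifted as a whole by a median log2 of 0.05 in the sevoflurane comparison and 0.12 in the desflurane comparison, and the folds below include this shift. After median-of-ratios scaling, which removes it, 197 genes passed the rule upward and 196 downward with desflurane, compared with 275 and 146 in the TPM values as deposited.

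Desflurane for 6 hours was accompanied by higher levels of all 8 genes, and 5 of them passed the rule. These were *G6pc*, *Ppargc1a*, *Pck1*, *Slc37a4*, and *Klf15*, compared with 1.62% of all 16982 genes that passed in this direction, or 2.84% of the 9695 genes with TPM values higher than 2 after desflurane. After sevoflurane 6 of the 8 genes were higher and 2 were lower than in the control, with *Pc* at a log2 change of 0.04 that was -0.0065 after median-of-ratios scaling, and none passed the rule, compared with 1.28% of all genes that passed upward and 1.9% downward. With 1 added to each TPM value, the 8 genes had a median log2 change of 1.08 with desflurane and 0.17 with sevoflurane, and the median of the 9136 genes on the same scale was 0.11 and 0.05. Both medians of the 9136 genes were positive, so most of these genes were also higher after 6 hours with either agent. The smallest change with desflurane, that of *Pck2*, was a log2 of 0.15 and became 0.022 after median-of-ratios scaling. The desflurane control was the lowest of the 4 libraries in 6 of the 8 genes, compared with 33.1% of the 9136 genes. The desflurane liver was the highest of the 4 libraries in 5 of the 8 genes, compared with 38.3% of the 9136 genes. Each liver was therefore also set against the other control, and of the 5 calls with desflurane those of *G6pc* and *Ppargc1a* were also made with it.

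**Figure D1:**
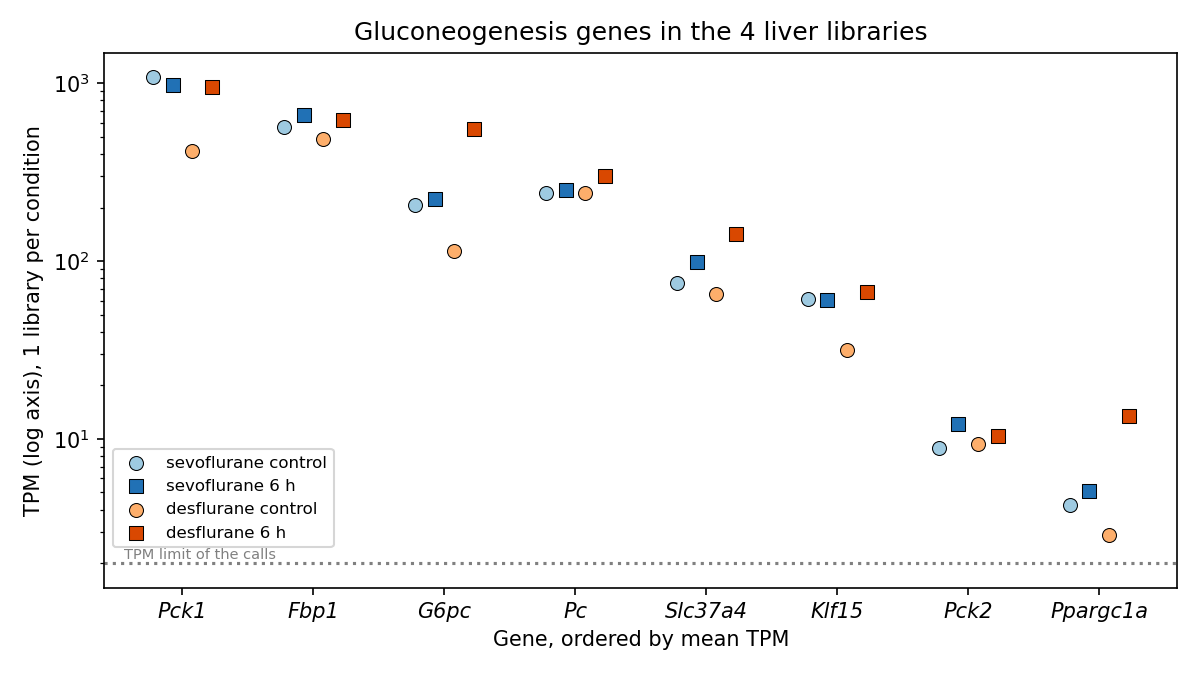
TPM values (log axis) of the 8 genes, ordered by mean level, with 1 point for each of the 4 libraries; circles are controls and squares are livers after 6 hours. *Pck1* was low only in the desflurane control (414 TPM), whereas *G6pc* and *Ppargc1a* were highest after 6 hours of desflurane (554 and 13.5 TPM).

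The entry to the pathway was carried by 3 enzymes with different patterns. *Pck1* (rn6 chr3:171213936-171219885, plus strand) was the most abundant of the 8 genes, with a mean of 856 TPM, and ranked 112 of 16982 genes by mean level. Its level was 1079 TPM in the sevoflurane control, 980 after sevoflurane, 414 in the desflurane control, and 951 after desflurane. Thus, 3 libraries had similar levels and the desflurane control was low. The increase of 2.30-fold with desflurane was smaller than the 2.61-fold difference between the controls, in which *Pck1* was the only one of the 8 genes to pass the rule (0.671% of all genes passed in that direction). Against the sevoflurane control, *Pck1* was 0.881-fold after desflurane, and the 2 livers taken after 6 hours differed by 1.03-fold.

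*Pck2* (rn6 chr15:34216735-34224357, plus strand), the mitochondrial form, was expressed at 8.90 TPM in the sevoflurane control, 12.2 after sevoflurane, 9.36 in the desflurane control, and 10.4 after desflurane. All 4 values were close, and the largest difference among them was 1.37-fold. The level of *Pck1* was 121 times that of *Pck2* in the sevoflurane control, 80.7 times after sevoflurane, 44.2 times in the desflurane control, and 91.7 times after desflurane. This ratio is taken within a library and does not depend on scaling between libraries. *Pc* (rn6 chr1:219759183-219859849, plus strand) had levels of 242, 249, 243, and 301 TPM in the same order of libraries. Its first 3 values were nearly equal, and desflurane was 1.24-fold above its control. The gene *Lrfn4* lies within *Pc* on the opposite strand at levels between 3.30 and 6.74 TPM. Whether strand was used in counting is not given in the sources used here.

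*Fbp1* (rn6 chr17:396176-417480, minus strand) was the second most abundant of the 8 genes, with 568 TPM in the sevoflurane control, 665 after sevoflurane, 488 in the desflurane control, and 623 after desflurane. Both livers taken after 6 hours were above both controls, by 1.17-fold with sevoflurane and 1.28-fold with desflurane against their own controls. These differences were similar to that between the controls (1.16-fold).

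The last step of the pathway showed the largest differences. *G6pc* (rn6 chr10:89286009-89296213, plus strand) was expressed at 206 TPM in the sevoflurane control, 223 after sevoflurane, 114 in the desflurane control, and 554 after desflurane. The desflurane liver was above the 3 others, and the desflurane control was below them. The 4.86-fold increase with desflurane ranked 13 among the 9136 genes, compared with a difference of 1.80-fold between the controls. *G6pc* was still 2.70-fold higher against the sevoflurane control and 2.48-fold higher than after 6 hours of sevoflurane. With sevoflurane, the change was 1.09-fold against its own control and 1.96-fold against the desflurane control. *Slc37a4* (rn6 chr8:48716939-48723023, plus strand), the transporter for the substrate of this phosphatase, was expressed at 75.2 TPM in the sevoflurane control, 99.4 after sevoflurane, 65.3 in the desflurane control, and 143 after desflurane. The controls were similar (1.15-fold), and both livers taken after 6 hours were above them. *Slc37a4* was 2.18-fold higher with desflurane and 1.90-fold higher against the sevoflurane control, which was below the limit. After median-of-ratios scaling, its log2 change with desflurane was 1.0002, barely above the 2-fold limit. With sevoflurane it was 1.32-fold higher against its own control and 1.52-fold higher against the desflurane control.

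The coactivator *Ppargc1a* (rn6 chr14:63095827-63186819, plus strand) had a pattern close to that of *G6pc* at a lower level. It was expressed at 4.23 TPM in the sevoflurane control, 5.08 after sevoflurane, 2.90 in the desflurane control, and 13.5 after desflurane. The desflurane liver was above the 3 others, and the increase was 4.64-fold against its own control and 3.18-fold against the sevoflurane control. It was the least abundant of the 8 genes, and its average coverage per base was 7.60, 8.60, 5.43, and 22.7 in the order of libraries, so its values are less precise than those of *G6pc*, whose lowest coverage was 214. Read counts were not used here, so these values carry no counting interval. *Klf15* (rn6 chr4:122365093-122377688, plus strand) had levels of 61.3 TPM in the sevoflurane control, 60.5 after sevoflurane, 31.7 in the desflurane control, and 66.6 after desflurane. As with *Pck1*, the desflurane control was low and the other 3 libraries were similar. The difference of 2.098-fold with desflurane was close to that between the controls (1.93-fold), it was 1.09-fold against the sevoflurane control, and it was just below 2-fold after median-of-ratios scaling, with a log2 change of 0.94.

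The change of control divided the 5 genes into separate patterns. Against the sevoflurane control, *G6pc* and *Ppargc1a* passed the rule with desflurane (1.65% of all genes passed in this direction and 0.919% downward), *Slc37a4* was below the limit, and *Pck1* and *Klf15* differed by 0.881-fold and 1.09-fold. Against the desflurane control, sevoflurane was accompanied by higher levels of all 8 genes, of which *Pck1* passed the rule with 2.37-fold (1.45% of all genes passed upward and 1.49% downward), and *G6pc* and *Klf15* were 1.96-fold and 1.91-fold higher. The median log2 change of the 8 genes was 0.26 for desflurane and 0.62 for sevoflurane in these comparisons, and that of the 9136 genes was 0.09 and 0.07. *G6pc* and *Ppargc1a* were also the only members among the 8 that passed between the 2 livers taken after 6 hours, in favor of desflurane (1.6% of all genes passed in this direction and 0.677% in the other). These comparisons share libraries and are not independent of each other.

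**Figure D2:**
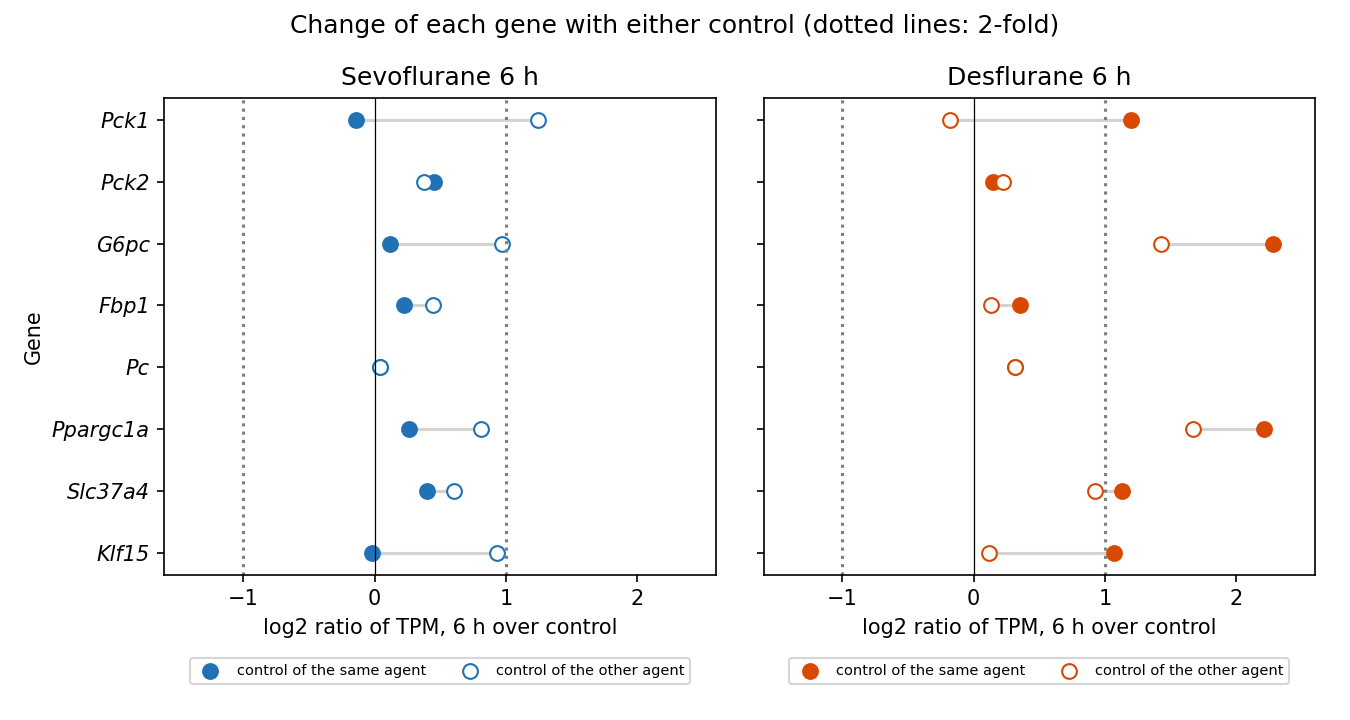
Log2 ratio of TPM values after 6 hours over control for each gene, with filled points for the control of the same agent and open points for the control of the other agent; dotted lines are 2-fold. With desflurane, *G6pc* and *Ppargc1a* stayed beyond 2-fold with either control, whereas *Pck1* went from 1.20 to -0.18.

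**Figure D3:**
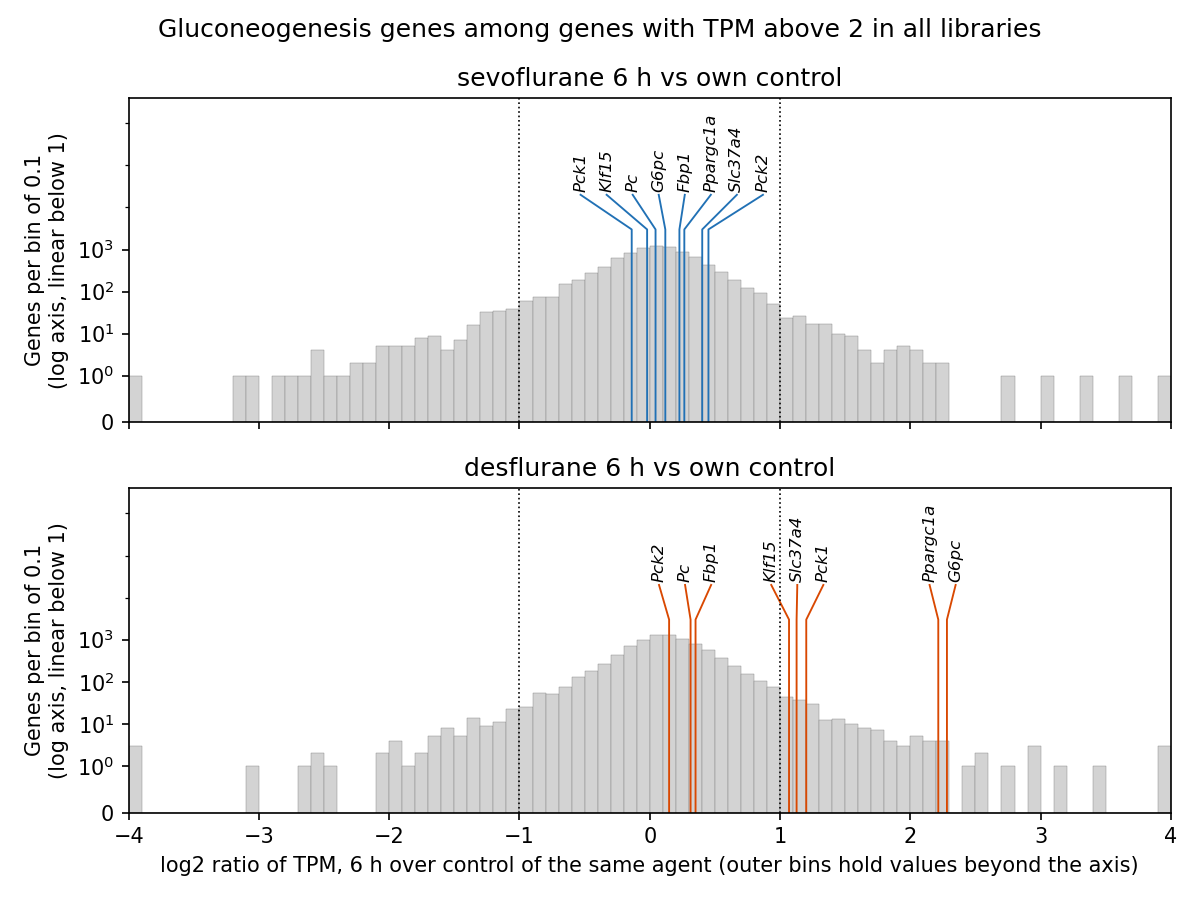
Number of genes (log axis) by log2 change against the control of the same agent among 9136 genes, with the 8 members marked by colored lines. With sevoflurane the members lie between -0.14 and 0.45, and with desflurane they lie between 0.15 and 2.28.

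In a list of 10 further enzymes, made up of reversible steps shared with glycolysis and of the paralogs *Fbp2* and *G6pc3*, none passed the rule with either agent. For this and the following lists, 1.28% of all genes passed upward and 1.9% downward with sevoflurane against its own control. With desflurane these shares were 1.62% and 0.86%, so small counts in a list can be near them. The dehydrogenase *Gapdh* had levels of 407 TPM in the sevoflurane control, 503 after sevoflurane, 373 in the desflurane control, and 380 after desflurane, and the enolase *Eno1* had levels of 182, 279, 197, and 239 TPM in the same order. Both were highest after sevoflurane. The median log2 change of the list was 0.27 with sevoflurane and 0.16 with desflurane.

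On the glycolytic side, 19 genes for glucose transport, glycolysis, pyruvate oxidation, and their regulation were measured. The list includes inhibitors of these steps, such as *Pdk2*, so its medians mix opposing functions. *Pfkfb1*, the bifunctional enzyme that sets fructose-2,6-bisphosphate in liver, was 21.5 TPM in the sevoflurane control, 40.8 after sevoflurane, 23.7 in the desflurane control, and 69.1 after desflurane, which is a 2.92-fold increase with desflurane and 3.22-fold against the sevoflurane control. With sevoflurane *Pdhb* and *Dlat*, subunits of pyruvate dehydrogenase, passed the rule at 2.06-fold and 2.47-fold (2.04-fold and 1.73-fold against the desflurane control). *Hk3*, a hexokinase found in leukocytes, was 10.8 TPM in the sevoflurane control, 1.65 after sevoflurane, 4.18 in the desflurane control, and 2.59 after desflurane. With sevoflurane it was 6.51-fold lower, and 2.53-fold lower against the desflurane control. With desflurane it was 1.61-fold lower, and 4.15-fold lower against the sevoflurane control. Kupffer cell genes summed to 330.2 TPM after sevoflurane and 479 after desflurane, and the part of these cells in the *Hk3* differences was not tested. In all, 2 genes passed upward and 1 downward with sevoflurane, and 1 in each direction with desflurane (0.86% of all genes passed downward), with median log2 changes of -0.10 and 0.14. The most abundant genes of this list did not pass with either agent. These were the glucose transporter *Slc2a2*, with levels between 294 and 445 TPM, the kinase *Pdk2*, between 178 and 225, and the pyruvate kinase *Pklr*, between 119 and 179.9.

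Enzymes and transporters that bring lactate, alanine, glycerol, and amino acids into the pathway were examined in a list of 20, of which 19 were measured. The cytosolic aspartate aminotransferase *Got1*, part of the malate-aspartate shuttle, was 38.8 TPM in the sevoflurane control, 189 after sevoflurane, 40.3 in the desflurane control, and 147 after desflurane. The serine dehydratase *Sds*, which forms pyruvate from serine, was 28.8, 109, 20.2, and 44.6 TPM in the same order. Both genes passed with both agents, with nearly equal controls for *Got1* (1.04-fold). Against the control of the other agent, *Got1* was 4.69-fold higher with sevoflurane and 3.80-fold higher with desflurane, whereas *Sds* was 5.38-fold and 1.55-fold higher. With desflurane *Gpd2*, the mitochondrial glycerol-3-phosphate dehydrogenase, also passed (2.07-fold, and 1.34-fold against the sevoflurane control), and *Ldhb*, a lactate dehydrogenase subunit, was 2.15-fold lower. Thus 2 genes passed upward with sevoflurane, and 3 upward and 1 downward with desflurane, and the median log2 changes of the list were 0.15 and 0.23. Against the control of the other agent these medians were 0.31 with sevoflurane and 0.08 with desflurane, in the reverse order. The most abundant, *Ldha*, *Gpd1*, and *Tat*, were each less than 2-fold different from their own control. *Tat*, the tyrosine aminotransferase, was 1.99-fold higher with sevoflurane and 1.14-fold higher with desflurane.

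Among 27 genes of transcriptional and hormonal control, 4 passed upward with desflurane and none downward, and 2 passed upward and 1 downward with sevoflurane. *Igfbp1*, whose hepatic transcription is lowered by insulin, was 35.1 TPM in the sevoflurane control, 74.7 after sevoflurane, 7.94 in the desflurane control, and 136 after desflurane. The desflurane control was thus the lowest library for *Igfbp1*, as it was for *G6pc* and *Pck1*. *Igfbp1* was 17.2-fold higher with desflurane and 3.89-fold higher against the sevoflurane control, and with sevoflurane it was 2.13-fold and 9.41-fold higher against its own and the other control. *Irs2*, the insulin receptor substrate, was 10.1, 7.01, 8.34, and 20.0 TPM in the order of libraries and was 2.39-fold higher with desflurane and 1.98-fold higher against the sevoflurane control. *Lpin1*, a coactivator partner of PGC-1alpha, was 2.87-fold higher with desflurane and 1.81-fold higher with sevoflurane. The pseudokinase *Trib3* was 2.25-fold higher with desflurane and 3.93-fold higher with sevoflurane. *Foxa2* was 30.5, 12.7, 44.5, and 22.9 TPM in the order of libraries, with the desflurane control highest. Its level was 2.41-fold lower with sevoflurane and 1.95-fold lower with desflurane, each against its own control. The most abundant factors, *Creb3l3*, *Hnf4a*, and *Cebpa*, and also *Foxo1* and the glucagon receptor *Gcgr*, did not pass with either agent. *Foxo1* had levels between 31.2 and 39.4 TPM and *Gcgr* between 33.3 and 41.8 TPM. The median log2 change of the list was -0.02 with sevoflurane and 0.14 with desflurane.

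**Figure D4:**
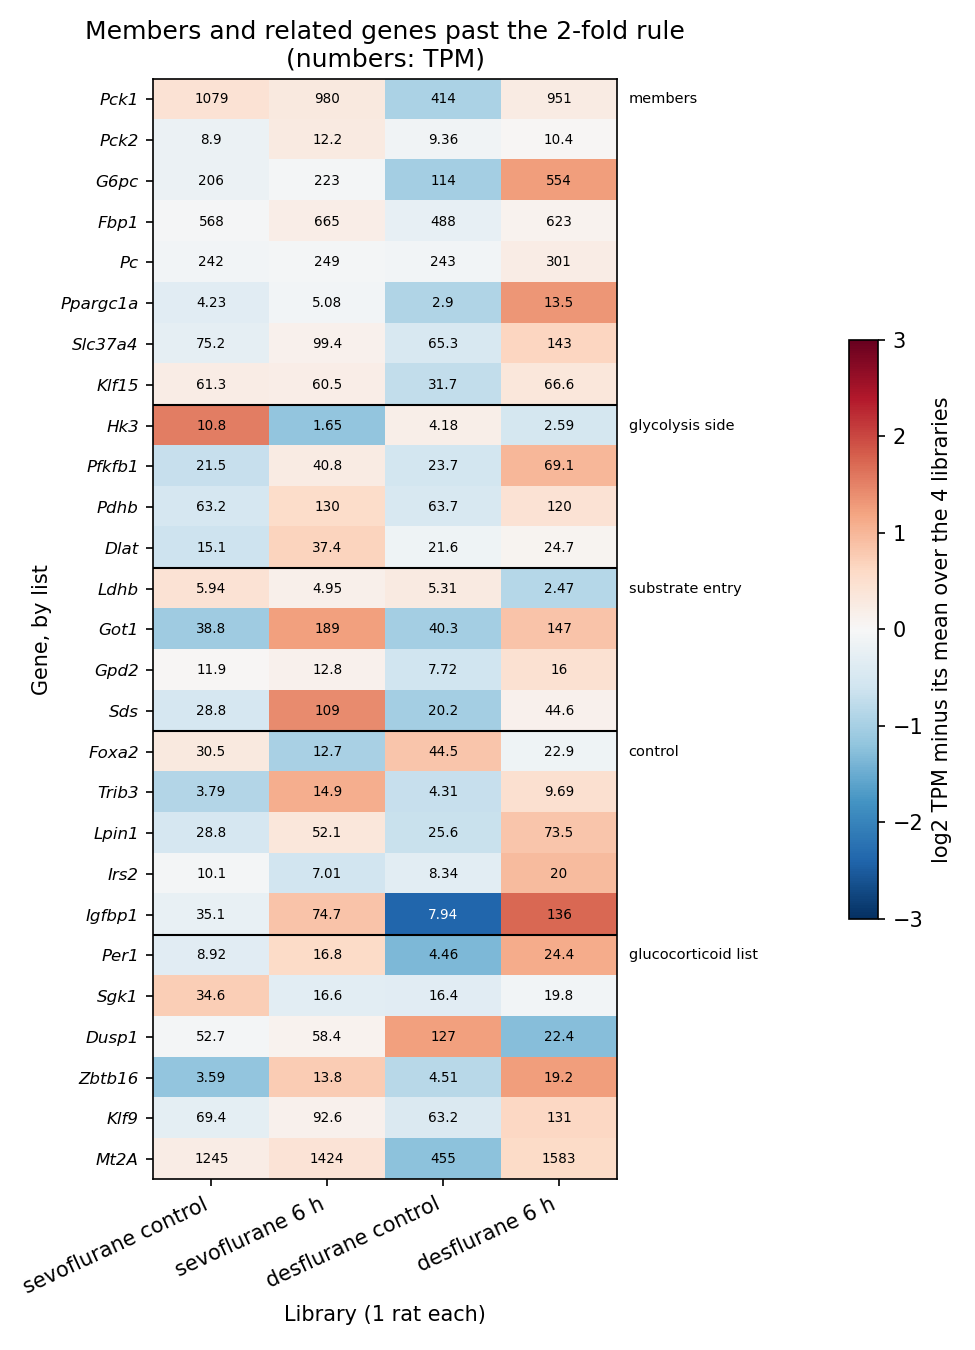
Levels of the 8 members and of genes past the rule with either agent in 4 related lists; colors are log2 TPM minus its mean over the 4 libraries and the printed numbers are TPM. *Igfbp1* was lowest in the desflurane control (7.94 TPM) and highest after desflurane (136 TPM).

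Glucocorticoids induce *Klf15* and *Pck1*, and 8 other glucocorticoid responsive genes were listed. With desflurane *Per1* (5.46-fold), *Zbtb16* (4.26-fold), *Mt2A* (3.48-fold), and *Klf9* (2.07-fold) passed upward and *Dusp1* was 5.67-fold lower. Against the sevoflurane control, *Mt2A* and *Klf9* were below the limit, with 1.27-fold and 1.88-fold, *Per1* was 2.73-fold higher, and *Dusp1* was 2.35-fold lower. *Dusp1* was 2.42-fold higher in the desflurane control than in the sevoflurane control. With sevoflurane *Zbtb16* was 3.84-fold higher and *Sgk1* was 2.08-fold lower, and *Sgk1* was 1.01-fold of the desflurane control. Against the desflurane control, *Tsc22d3*, *Per1*, *Zbtb16*, and *Mt2A* passed upward after sevoflurane and *Dusp1* passed downward (1.45% and 1.49% of all genes). *Mt2A*, a metallothionein, was 1245 TPM in the sevoflurane control, 1424 after sevoflurane, 455 in the desflurane control, and 1583 after desflurane, and like *Klf15* and *Pck1* it was low in the desflurane control alone. The median log2 change of the list was 0.92 with desflurane and 0.49 with sevoflurane. Against the control of the other agent the order was reversed, with 0.54 for desflurane and 0.86 for sevoflurane.

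Gluconeogenesis is more active in hepatocytes near the portal vein, and genes of both zones were therefore listed. Among 12 periportal genes, 3 passed upward with each agent and none downward, with median log2 changes of 0.34 with sevoflurane and 0.37 with desflurane. Besides *Sds*, these were urea cycle enzymes, *Asl* with both agents (2.38-fold and 2.47-fold), *Arg1* with sevoflurane (2.27-fold), and *Ass1* with desflurane (2.28-fold, and 1.74-fold against the sevoflurane control). *Arg1* was 1.97-fold higher with desflurane. Among 10 pericentral genes, none passed with sevoflurane, and *Cyp1a2* (2.06-fold) and *Slc1a2* (2.44-fold) passed upward with desflurane. Both were below 2-fold against the sevoflurane control, with 1.22-fold and 1.11-fold. The medians of the pericentral list were -0.15 with sevoflurane and 0.16 with desflurane. Against the control of the other agent both changed sign, to 0.22 with sevoflurane and -0.19 with desflurane.

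The genes whose profile over the 4 libraries was most like that of *Pck1* and *G6pc* were sought among the 9136 genes by the distance between log2 TPM values centered on their mean. Nearest to *Pck1* were *Cyp2c11* (distance 0.12), a male-predominant cytochrome P450, *Hprt1* (0.13), a purine salvage enzyme, and *Id1* (0.29), an inhibitor of DNA binding. *Cyp2c11* was expressed at 1457 TPM in the sevoflurane control, 1245 after sevoflurane, 544 in the desflurane control, and 1146 after desflurane, and it belongs to a family of close paralogs that share reads. Nearest to *G6pc* outside the 8 genes were the carnitine transporter *Slc22a5* (0.25), the homeobox gene *Meox2* (0.26), and the pantetheinase *Vnn1* (0.38). *Slc22a5* was expressed at 8.38, 10.1, 5.54, and 21.7 TPM in the order of libraries. The distance between *G6pc* and *Ppargc1a* was 0.23, that between *Pck1* and *Klf15* was 0.33, and that between *Pck1* and *G6pc* was 1.23. With 4 libraries, such distances are a description of these rats.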

How the data were processed

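Liver RNA of 4 rats was sequenced, with 1 library for each condition. According to the methods of the study, the authors trimmed reads with sickle, mapped them to rn6 with HISAT2, sorted them with SAMtools, and ran StringTie with the refGene annotation. The deposited TPM values are a signal that the authors' StringTie run scaled so that assembled rows add up to 1000000, and the annotated rows, on the same scale, add up to between 779824 and 813454. The deposited FPKM values are normalized for library size, and the deposited coverage is not. No table of read counts was used here.

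Annotated rows longer than 200 base pairs were kept, and TPM values were summed by symbol over genes present in all 4 tables, which left 16982 genes. Each of the 8 members had 1 row per library. Depth was derived from the ratio of FPKM to coverage. Calls and medians were calculated in numpy 2.4.6 and pandas 2.3.3 under Python 3.11.15, and figures were drawn with matplotlib 3.10.9. Promoter windows were those of RefSeq on GRCr8, available for 7 of the 8 members.

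The members and lists were chosen with earlier results of these data known. Named genes are the 8 members, the genes of each list that passed with either agent, the 3 most abundant of each list, and the 3 genes nearest to *Pck1* and to *G6pc*. Other named genes, such as *Foxo1* and *Gcgr*, were chosen after their values were seen. The alternatives were 14 planned settings and 1 added after the data were seen. Results for a few listed genes are left out of the text and figures. *Slc25a13* and *Krt7* were not analysed here.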

Additional observations from a re-analysis of the deposited data

Results flagged for a closer look

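Among the 8 genes and the related genes that passed the 2-fold rule with at least 1 agent, opposite directions with the 2 agents, each against its own control, were seen in 2 of the 8 genes and in 5 related genes. The log2 change of *Pck1* was 1.20 with desflurane and -0.14 with sevoflurane, and that of *Klf15* was 1.07 and -0.020. *Irs2* had log2 changes of 1.26 and -0.52, *Cyp1a2* of 1.04 and -0.13, and *Slc1a2* of 1.29 and -0.18 in the same order. *Sgk1* had a log2 change of 0.27 with desflurane and -1.05 with sevoflurane, and *Dusp1* of -2.50 and 0.15. With 1 library for each condition, no test of a difference between agents was made for these genes. In *Pck1* and *Klf15*, the 2 livers taken after 6 hours differed by log2 values of -0.04 and 0.14, desflurane relative to sevoflurane, and the controls by -1.38 and -0.95.

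An assembled row on the strand opposite to *G6pc*, outside the annotated rows used in the comparisons, was present after 6 hours of desflurane with a TPM value of 40.6 and a coverage of 10.2. It covered 6709 bases of the *G6pc* span, and no opposite row overlapped *G6pc* in the 3 other libraries. The annotated *G6pc* row of the same library had 554 TPM and a coverage of 934, and the part of the opposite row in that value was not tested.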

How the results depend on the processing

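The count of 5 members higher with desflurane became 2 against the other control, 3 with the mean of the 2 controls, and 2 with a limit of 3-fold. It became 4 with median-of-ratios scaling, with FPKM in place of TPM, and with rRNA genes removed. The count of 0 with sevoflurane became 1 against the other control. With that control, the log2 change of *Pck1* was -0.18 with desflurane and 1.25 with sevoflurane, both opposite in sign to the comparison with the own control. The cause of the difference between the controls was not tested. *Klf15* fell below the 2-fold limit with desflurane in 5 of the 10 alternatives that give its change, among them FPKM in place of TPM (log2 0.99) and removal of rRNA genes (0.96). Of 80 such values for each agent, 78 kept their direction with desflurane and 72 with sevoflurane. Among them are the values for the largest row and for no length filter, which could not differ from the main values. The other direction changes were those of *Pck2* with desflurane (-0.17 in assembled rows) and, with sevoflurane, of *Pck1* (0.39 with the mean of the controls), of *Klf15* (0.93 with the other control, 0.38 with the mean of the controls, and 0.14 in assembled rows), and of *Pc* (-0.0065 after median-of-ratios scaling, -0.0068 with FPKM, and -0.012 in assembled rows). The other TPM limits, a limit of 1.5-fold, a pseudocount, rescaling to one total, the largest row, no length filter, and assembled rows left the counts at 5 and 0. No paired analysis was possible because each condition has 1 library. Depth limits *Ppargc1a* and *Pck2* most, and the missing replicates limit every value.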

Other observations

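Assembled rows of StringTie also lie at these loci, and they were not used for the levels above. At *Pck1*, the assembled row had the same ends and the same TPM value as the annotated row in all 4 libraries. The assembled rows are therefore not independent of the annotated ones. At *Pck2*, 2 rows on the same strand were assembled in each of the 4 libraries in place of 1, with TPM values between 7.24 and 8.97 for the row at the start of the gene and between 9.90 and 15.2 for the row at its end. At *Ppargc1a*, 1 assembled row covered the whole annotated gene in the sevoflurane control and in both livers taken after 6 hours, whereas 3 separate rows on the same strand were assembled in the desflurane control, where coverage was lowest. At *G6pc*, the assembled row on the same strand had TPM values of 206, 224, 134, and 556 in the sevoflurane control, after sevoflurane, in the desflurane control, and after desflurane, so the assembled row exceeded the annotated row (114) most in the desflurane control.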
